A study of Mus musculus with 5 samples.

Results

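Transcripts of glycolysis and of the response to low oxygen were followed in mouse embryonic fibroblasts (MEFs) that carry a mutant form of the adaptor protein STING. The set is a list of 33 genes named for their part in these pathways. Of these, 28 had a probe set whose annotation names that gene alone, out of 22180 genes measured in this way, and all 28 were among the 12306 genes whose highest value reached the median of its array, the tested genes. Gpi1, Eno1, Aldoa, Bnip3l and Ankrd37 were not analysed here, and the annotation lists the last 3 on probe sets shared with another symbol. A gene with more than 1 such probe set is represented by the one with the highest mean.

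All 5 samples are STING-/- MEFs, labelled as primary cells, into which the STING R284S variant was put back, so the variant is present on every array and no array shows the cells without it. The 5 groups are vehicle, Compound C, doxorubicin, GSK 690693 and tofacitinib, each for 9 hours, and each group is 1 sample on 1 Affymetrix array. The treatment label calls the compounds AMPK inhibitors. As background, Compound C (dorsomorphin) blocks the energy sensor AMPK and BMP receptors, and doxorubicin is a poison of topoisomerase II. GSK 690693 is mainly an AKT inhibitor that also acts on AMPK, and tofacitinib is a JAK inhibitor. The doses, the vehicle, the sex and age of the embryos, the way the variant was introduced and whether the cells are 1 clone were not stated in the material used. The question asked of each compound is how far these metabolic transcripts stood from vehicle.

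Glycolysis splits glucose into pyruvate in the cytosol, and in cells with little oxygen or with strong growth signals most pyruvate is reduced to lactate and exported. The transcription factor HIF-1 raises glucose uptake, most glycolytic enzymes and a set of genes for blood vessel growth, pH control and mitochondrial turnover. In the presence of oxygen the prolyl hydroxylases of the Egln family mark its HIF1A subunit for degradation by the VHL ubiquitin ligase. In fibroblasts the pathway also supports collagen maturation through prolyl 4-hydroxylase.

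Each group being 1 array, replicate spread is unknown, so no difference has an error or a test, and each one is between 2 arrays. Values are log2 signals as deposited, and differences are compound minus vehicle on that scale. Genes are counted at 1.5-fold (a log2 difference of 0.585) and at 2-fold, and counts are set beside the percentage of all 12306 tested genes past the same limit. The SD of the log2 difference over tested genes ran from 0.258, between tofacitinib and GSK 690693, to 0.657, between doxorubicin and Compound C. Of 10 fibroblast markers, 9 were above the array median on all 5 arrays, and of 6 macrophage markers 4 were below it on all 5, Ptprc and Adgre1 among them. The mean of the macrophage list was lowest with vehicle and tofacitinib, at 4.52 each, and highest with doxorubicin, at 4.82, where Cd68 read 7.63 against 6.56 with vehicle. Of the epithelial, endothelial, muscle and neural markers, 2 of 5, 0 of 5, 2 of 4 and 2 of 4 were above the median on all 5 arrays. The part of other cell types in the results was not tested. In these bulk samples, fewer cells that express a gene and less RNA per cell cannot be told apart. The Sting1 probe set read between 5.07 and 5.25, below the filter, and whether it lies in the disrupted or introduced sequence is not given, so it checks neither.

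Doxorubicin was the compound with which these genes differed most from vehicle, and they differed in both directions. Pfkm, Pfkl, Pdk1, P4ha2, Car9, Egln1 and Bnip3 were at least 1.5-fold higher, and Adm, Vegfa, Kdm3a and Pfkfb4 at least 1.5-fold lower. These are 7 of 28 members higher, beside 11.5% of tested genes, and 4 lower, beside 14.2%. At 2-fold there were 0 higher (1.33% of tested genes) and 3 lower (6.46%), the 3 being Adm, Vegfa and Kdm3a, of which Kdm3a was within 2-fold after median centring (-0.96). The member median was 0.28 against 0.05 for all tested genes, and 21 of 28 stood above vehicle where 54.0% of tested genes did. A centring that follows signal strength takes out a difference shared by genes of like brightness. After it 5 members were higher, 5 lower and 17 above vehicle, with a median of 0.21. Of all tested genes 8.6% were then higher, 15.4% lower and 6138 of 12306 above vehicle, with a median of 0.0.

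With Compound C the members shifted by small amounts, mostly upward, and only Hk2 and Pfkfb3 passed 1.5-fold. Pfkfb3 was higher (6.07% of tested genes were) and Hk2 lower (10.0% were). The median was 0.22 against -0.02 for all tested genes, and 19 of 28 members were above vehicle where 46.6% of tested genes were. It stayed positive under both centrings, at 0.28 and 0.20. With the other 4 arrays, by their median, in place of vehicle it was 0.08, against -0.06 for all tested genes.

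With GSK 690693 no member passed 1.5-fold, where 2.41% of tested genes were higher and 3.21% lower. The differences ran from -0.55 in Egln3 to 0.29 in Eno2, with a median of 0.005, and 14 members were above vehicle (55.2% of tested genes were), 13 below and 1 level. Egln3 passed the limit after either centring, at -0.62 and -0.61. The split of all tested genes at 1.5-fold depended on scaling, being 296 higher and 395 lower as deposited and 171 and 541 after median centring.

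With tofacitinib Egln3 was lower and Pfkm higher than with vehicle by 1.5-fold, against 2.0% and 2.67% of tested genes. Of the 28 members, 15 were below vehicle and 12 above, whereas 62.8% of tested genes were above. The median was -0.06 as deposited, -0.23 after median centring, which takes 0.17 off every tofacitinib value, and -0.09 after centring by signal strength. All tested genes split into 328 higher and 246 lower as deposited and into 67 and 600 after median centring, so directions of small tofacitinib differences depend on that choice. After either centring Pfkm read 0.42, within 1.5-fold.

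**Figure D1:**
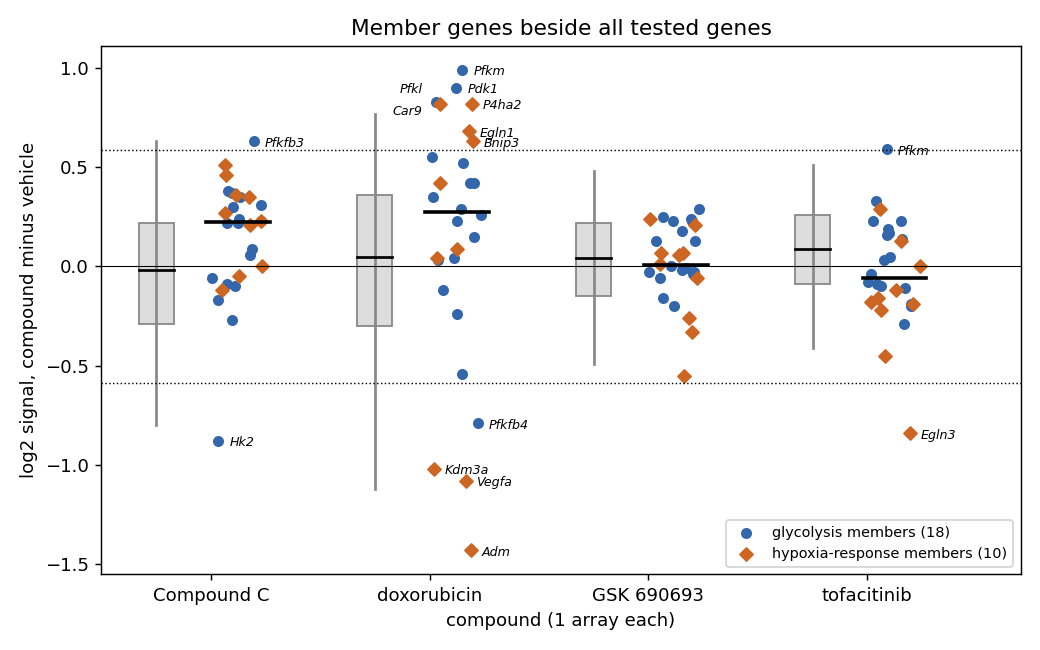
Log2 signal of each compound minus vehicle, 1 array each, for 18 glycolysis members (circles) and 10 hypoxia-response members (diamonds), with the member median as a black bar. The grey box and line span the interquartile range and the 5th to 95th percentiles of the 12306 tested genes, and dotted lines mark 1.5-fold. Doxorubicin points spread widest, from Adm at -1.43 to Pfkm at 0.99, and GSK 690693 points stay within 1.5-fold.

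Hypoxia-inducible factors bind DNA at a short core, so the promoter windows of the members were searched for ACGTG and GCGTG on both strands. The windows are the 250 bases before the first start listed for each gene in RefSeq (GRCm38.p6), in which all 28 members had an entry. A core was found in 23 of 28 member windows (82.1%) and in 5456 of 9693 windows of tested genes (56.3%). Not all of the 12306 tested genes had a window. Over all genes it was found in 10431 of 27025 windows (38.6%). The members were listed for their part in glycolysis or as HIF targets, so their share is not independent of that choice. The core was in 7 of 7 windows of members at least 1.5-fold higher with doxorubicin and in 3 of 4 of those lower. Of the members in between, 13 of 17 windows had it (76.5%). Among all tested genes the core was present in 58.7% of the windows of genes higher with doxorubicin and in 58.4% of those lower. ACGTG is also part of CACGTG, the E-box, which 4 member windows held (14.3%, beside 8.5% of tested genes). A match is a run of letters and not a shown binding site, and no match refers to this window alone.

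The windows of 8 members follow, 5′ to 3′ on the gene's strand, with the core matches in capitals. Pdk1, Bnip3 and P4ha2 are examples of the members higher with doxorubicin, among which Pfkm, not shown, had the largest difference. Adm, Vegfa and Kdm3a were the lowest with it, Hk2 differed most with Compound C and Egln3 with tofacitinib.
Pdk1, chr2:71872974-71873223, plus strand: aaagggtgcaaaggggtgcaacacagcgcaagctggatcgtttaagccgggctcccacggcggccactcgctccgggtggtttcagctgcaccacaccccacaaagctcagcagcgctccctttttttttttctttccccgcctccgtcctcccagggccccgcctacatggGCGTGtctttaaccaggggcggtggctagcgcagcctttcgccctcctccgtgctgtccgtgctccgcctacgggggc
Bnip3, chr7:138909507-138909756, minus strand: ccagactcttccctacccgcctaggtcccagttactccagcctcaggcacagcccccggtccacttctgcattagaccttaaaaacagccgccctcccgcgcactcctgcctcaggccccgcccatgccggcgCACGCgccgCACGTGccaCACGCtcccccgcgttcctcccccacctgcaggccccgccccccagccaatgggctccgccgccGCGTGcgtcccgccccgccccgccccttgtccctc
P4ha2, chr11:54100674-54100923, plus strand: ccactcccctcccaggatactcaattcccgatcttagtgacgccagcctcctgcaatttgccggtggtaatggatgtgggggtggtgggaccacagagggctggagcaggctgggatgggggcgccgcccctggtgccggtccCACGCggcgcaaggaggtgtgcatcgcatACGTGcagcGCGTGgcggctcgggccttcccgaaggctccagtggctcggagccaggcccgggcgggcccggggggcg
Adm, chr7:110627407-110627656, plus strand: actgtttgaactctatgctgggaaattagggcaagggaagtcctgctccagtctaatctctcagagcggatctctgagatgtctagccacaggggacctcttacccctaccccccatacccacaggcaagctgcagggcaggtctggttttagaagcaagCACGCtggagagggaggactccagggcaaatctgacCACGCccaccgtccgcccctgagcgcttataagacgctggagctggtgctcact
Vegfa, chr17:46032378-46032627, minus strand: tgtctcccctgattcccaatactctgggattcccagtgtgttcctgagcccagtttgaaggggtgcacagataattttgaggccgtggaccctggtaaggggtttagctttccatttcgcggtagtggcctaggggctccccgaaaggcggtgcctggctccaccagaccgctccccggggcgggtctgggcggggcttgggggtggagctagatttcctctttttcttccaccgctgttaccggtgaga
Kdm3a, chr6:71632918-71633167, minus strand: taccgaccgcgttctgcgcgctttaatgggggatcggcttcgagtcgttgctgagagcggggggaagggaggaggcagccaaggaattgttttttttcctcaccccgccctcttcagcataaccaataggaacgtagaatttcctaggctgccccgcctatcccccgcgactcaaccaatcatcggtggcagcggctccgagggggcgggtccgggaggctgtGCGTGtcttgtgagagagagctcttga
Hk2, chr6:82774455-82774704, minus strand: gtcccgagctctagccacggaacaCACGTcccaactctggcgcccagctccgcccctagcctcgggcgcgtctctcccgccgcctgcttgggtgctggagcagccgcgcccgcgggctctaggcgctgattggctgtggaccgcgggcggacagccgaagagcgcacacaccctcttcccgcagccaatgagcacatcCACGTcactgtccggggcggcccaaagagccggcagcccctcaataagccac
Egln3, chr12:54203875-54204124, minus strand: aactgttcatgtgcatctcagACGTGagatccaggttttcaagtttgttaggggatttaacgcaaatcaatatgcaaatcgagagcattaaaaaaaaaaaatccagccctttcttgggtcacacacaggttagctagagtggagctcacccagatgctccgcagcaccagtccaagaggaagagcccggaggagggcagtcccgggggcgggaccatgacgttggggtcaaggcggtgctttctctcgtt
Bnip3 has 5 matches, 1 pair of them forming a CACGTG, and P4ha2 has 3. Adm and Hk2 have 2 each, Pdk1, Kdm3a and Egln3 have 1, and the window of the first Vegfa start has 0. Of the members higher with doxorubicin that are not shown, Pfkm and Egln1 have 2 and Pfkl and Car9 have 1. Bnip3 and P4ha2 thus have the most matches of the higher members and do not stand for them in number. Pfkfb4, lower and not shown, has 1.

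Glucose enters fibroblasts mainly through the transporter encoded by Slc2a1 (GLUT1) and is phosphorylated by hexokinases, of which Hk1 is the housekeeping form and Hk2 the inducible form. Hk2 read 8.50 in the vehicle array, 7.62 under Compound C, 8.26 under doxorubicin, 8.63 under GSK 690693 and 8.30 under tofacitinib. The Compound C array stood 0.64 or more below each of the others. The difference from vehicle was -0.88, or 1.84-fold lower, and only 3.7% of tested genes had a lower difference with that compound. Against the median of the other 4 arrays it was -0.78. Slc2a1 and Hk1 had ranges over the 5 arrays of 0.41 and 0.30, and both stood slightly above vehicle with Compound C, at 0.22 and 0.23. A second, dimmer Slc2a1 probe set ran from 4.96 with tofacitinib to 5.84 with Compound C, with a tofacitinib difference of -0.54 where the one used gave -0.19.

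Phosphofructokinase commits glucose to glycolysis, and its 3 subunit genes Pfkl (liver type), Pfkm (muscle type) and Pfkp (platelet type) had their highest value with doxorubicin. Pfkm read 6.56 in the vehicle array, 6.47 under Compound C, 7.55 under doxorubicin, 6.81 under GSK 690693 and 7.15 under tofacitinib. Its doxorubicin difference of 0.99 (1.99-fold) was the highest of the members with that compound, and Compound C and vehicle were the low arrays. Pfkl read 9.43 in the vehicle array, 9.74 under Compound C, 10.26 under doxorubicin, 9.66 under GSK 690693 and 9.76 under tofacitinib. Vehicle was the low array and doxorubicin the high one, 0.83 apart, and with the other 4 arrays' median as reference the difference was 0.56, within 1.5-fold. Pfkp was at 9.72 with vehicle, 10.02 with Compound C and 10.14 with doxorubicin, within 1.5-fold.

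The Pfkfb genes encode the enzymes that make and remove fructose 2,6-bisphosphate, the activator of phosphofructokinase. The members Pfkfb3 and Pfkfb4 had their lowest value with doxorubicin. Pfkfb2, outside the member list, did not, at 6.66 with vehicle and 7.07 with doxorubicin. Pfkfb3, the form with the strongest kinase activity and a substrate of AMPK, read 7.61 in the vehicle array, 8.24 under Compound C, 7.07 under doxorubicin, 7.59 under GSK 690693 and 7.32 under tofacitinib. Compound C and doxorubicin therefore stood at opposite ends, 1.17 apart, with a Compound C difference of 0.63 and a doxorubicin difference of -0.54 that reached -0.61 after centring by signal strength. Pfkfb4 read 5.81 in the vehicle array, 5.54 under Compound C, 5.02 under doxorubicin, 5.80 under GSK 690693 and 5.72 under tofacitinib. Only the doxorubicin array was low, by 0.79, and this is a dim probe set that lies near the array medians of 5.37 to 5.44.

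The middle and lower enzymes measured, without Aldoa and Eno1, stayed within 1.5-fold with every compound as deposited, in the probe sets used. The 4 lower enzymes measured, Pgk1, Pgam1, Eno2 and Pkm, were lowest with vehicle. Their differences were 0.09 to 0.38 with Compound C, 0.15 to 0.52 with doxorubicin, 0.13 to 0.29 with GSK 690693 and 0.16 to 0.23 with tofacitinib. After median centring all 4 were still above vehicle with Compound C, doxorubicin and GSK 690693, but with tofacitinib Pgk1 was at 0.00 and Pkm at -0.01. Pgk1, phosphoglycerate kinase, read 11.57 with vehicle and 11.74 to 11.92 with the compounds. Pkm, pyruvate kinase, read 12.03 with vehicle and 12.16 to 12.32 with the compounds. Aldoc, an aldolase, also had its lowest value with vehicle, 5.86, and its highest with doxorubicin, 6.41. That difference of 0.55 was 0.61 after median centring, past 1.5-fold, and 0.58 after centring by signal strength. Gapdh, often used as a reference gene, read between 12.59 and 12.75, and only 1.5% of tested genes had a smaller range. Its other probe sets ran from 12.44 to 12.70 and from 9.51 to 9.80. Tpi1, triose phosphate isomerase, ran from 11.08 to 11.47.

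A second Pgam1 probe set, dimmer than the one used, read 7.71 with vehicle and 8.53 with doxorubicin. That difference of 0.82 is past 1.5-fold, where the one used gave 0.52. It was lowest with tofacitinib, at 7.54, and not with vehicle. Its tofacitinib and GSK 690693 differences were -0.17 and 0.05, where the one used gave 0.23 and 0.24. The RefSeq gene table names 3 pseudogene copies of Gapdh, 3 of Pgk1, 2 of Pgam1 and 3 of Ldha, so their probe sets may also read near-identical transcripts, which was not tested.

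At the end of the pathway Ldha reduces pyruvate to lactate, Slc16a3 (MCT4) exports lactate, and Pdk1 phosphorylates pyruvate dehydrogenase and so keeps pyruvate from the mitochondrion. Pdk1 read 7.36 in the vehicle array, 7.73 under Compound C, 8.26 under doxorubicin, 7.36 under GSK 690693 and 7.41 under tofacitinib. Doxorubicin was high and Compound C in between, while the remaining arrays lay within 0.05 of each other. The doxorubicin difference was 0.90 (1.87-fold), and 0.59 for the mean with a second probe set that is dim on every array, at 2.14 to 2.74. Slc16a3 was highest with doxorubicin (9.29 against 8.87 with vehicle), and Ldha was highest with vehicle and ranged over 0.20, and 3.1% of tested genes had a smaller range.

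**Figure D2:**
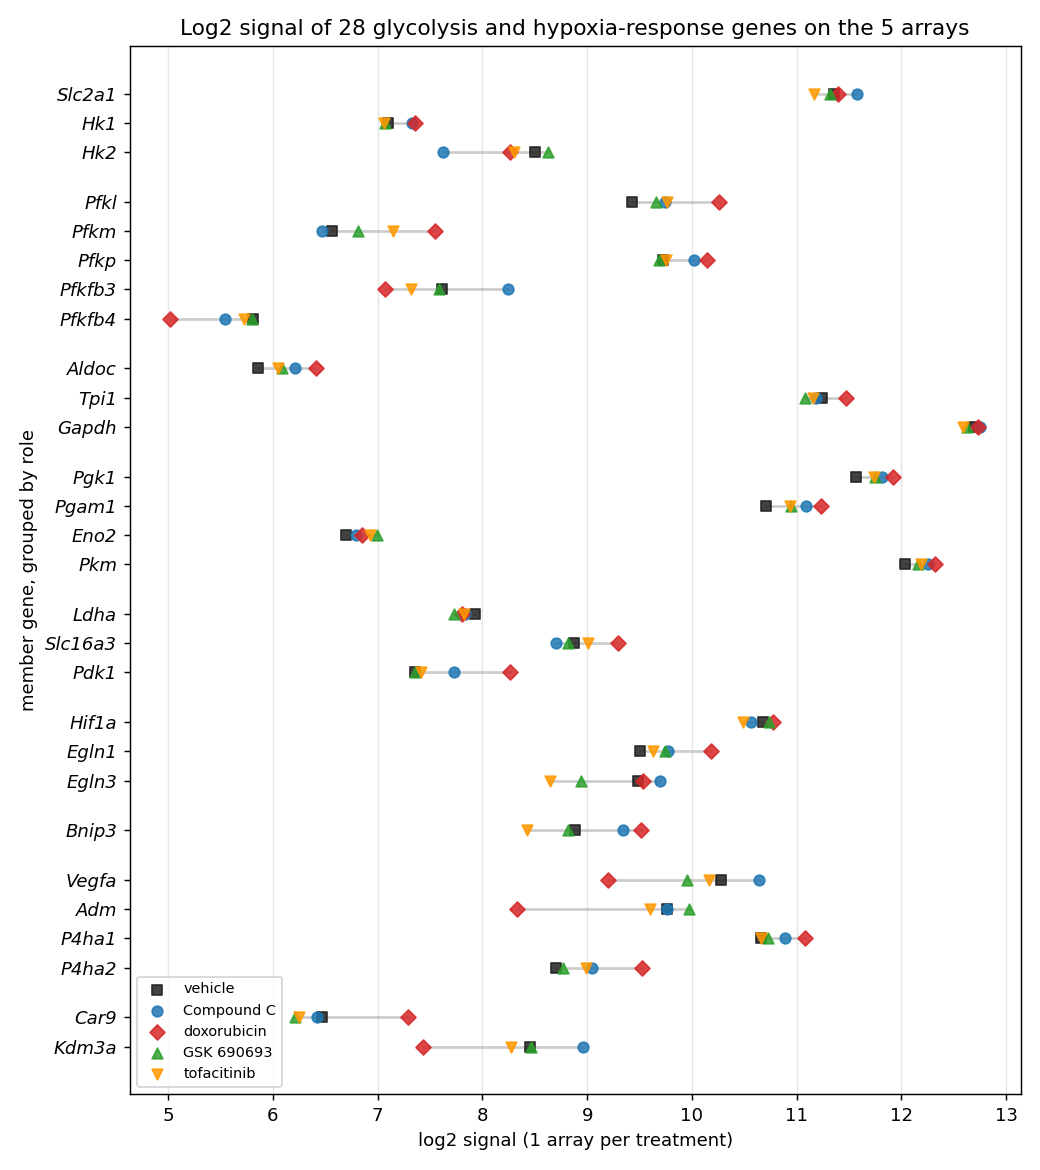
Log2 signal of the 28 members on each of the 5 arrays, 1 array per treatment, with the genes grouped by role and a grey line joining the lowest and highest array. Levels of different genes are not comparable, since each has its own probes. Doxorubicin (red diamonds) is at the right end for 17 genes and at the left end for 5, and Hk2 is lowest with Compound C (blue circle).

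Oxygen sensing was represented by Hif1a, the regulated HIF-1 subunit, and by Egln1 and Egln3, the prolyl hydroxylases PHD2 and PHD3, which are also HIF targets. Hif1a mRNA ran from 10.49 with tofacitinib to 10.77 with doxorubicin. A second, dimmer Hif1a probe set ran from 5.45 with tofacitinib to 6.14 with Compound C, and its doxorubicin difference was -0.38 where the one used gave 0.09. Egln3 read 9.49 in the vehicle array, 9.70 under Compound C, 9.53 under doxorubicin, 8.94 under GSK 690693 and 8.65 under tofacitinib. Tofacitinib and GSK 690693 were the low arrays, and the remaining arrays lay within 0.21 of each other. The tofacitinib difference of -0.84 (1.79-fold lower) exceeded that of all but 0.6% of tested genes on the low side, and it was -1.01 and -0.93 after the 2 centrings. Egln1 had another pattern, with 9.50 in the vehicle array, 9.77 under Compound C, 10.18 under doxorubicin, 9.74 under GSK 690693 and 9.63 under tofacitinib. Doxorubicin was the high array by 0.68 over vehicle, which became 0.52 after centring by signal strength and 0.50 when the other 4 arrays gave the reference, both within 1.5-fold.

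Bnip3, a receptor on the outer mitochondrial membrane that directs mitochondria to autophagy, read 8.88 in the vehicle array, 9.34 under Compound C, 9.51 under doxorubicin, 8.82 under GSK 690693 and 8.43 under tofacitinib. Doxorubicin and Compound C were high and tofacitinib low. The doxorubicin difference of 0.63 became 0.46 after centring by signal strength, and the tofacitinib difference of -0.45 became -0.62 after median centring. Slc2a1, Hk1, Gapdh, Hif1a, Egln3 and Bnip3 were the 6 members lowest on the tofacitinib array alone, and P4ha1 was equally low there and with vehicle.

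The secreted products Vegfa, the main growth factor of blood vessels, and Adm, the vasodilator peptide adrenomedullin, were far lower with doxorubicin. Adm read 9.76 in the vehicle array, 9.76 under Compound C, 8.33 under doxorubicin, 9.97 under GSK 690693 and 9.60 under tofacitinib, so that doxorubicin alone was low. Its difference of -1.43 (2.69-fold lower) was exceeded on the low side by 2.6% of tested genes. Vegfa read 10.28 in the vehicle array, 10.64 under Compound C, 9.20 under doxorubicin, 9.95 under GSK 690693 and 10.16 under tofacitinib. Doxorubicin was the low array and Compound C the high one, 1.44 apart, and the difference from vehicle was -1.08 (2.11-fold lower). Both stayed past 2-fold after either centring, at -1.37 and -1.60 for Adm and -1.02 and -1.24 for Vegfa.

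P4ha1 and P4ha2 encode catalytic subunits of the prolyl 4-hydroxylase that lets collagen fold, and both were highest with doxorubicin. P4ha2 read 8.70 in the vehicle array, 9.05 under Compound C, 9.52 under doxorubicin, 8.77 under GSK 690693 and 8.99 under tofacitinib, a doxorubicin difference of 0.82 (1.77-fold). P4ha1 went from 10.66 with vehicle to 11.08 with doxorubicin, within 1.5-fold. Of the collagen genes among the fibroblast markers, Col1a1 read 11.14 with vehicle and 10.50 with doxorubicin. Col1a2 read 10.61 and 10.62 on these arrays, and Col3a1 7.30 and 7.53, so the collagen genes did not move together.

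Car9, the cell surface carbonic anhydrase that handles acid export, read 6.47 in the vehicle array, 6.42 under Compound C, 7.29 under doxorubicin, 6.21 under GSK 690693 and 6.25 under tofacitinib. Doxorubicin alone was high, by 0.82, but a second, dimmer Car9 probe set read 5.78 with vehicle and 5.75 with doxorubicin, and the mean of both gave 0.40. Kdm3a, a histone H3 lysine 9 demethylase, read 8.45 in the vehicle array, 8.96 under Compound C, 7.43 under doxorubicin, 8.46 under GSK 690693 and 8.27 under tofacitinib. Doxorubicin was low and Compound C high. The difference with doxorubicin was -1.02 (2.03-fold lower).

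**Figure D3:**
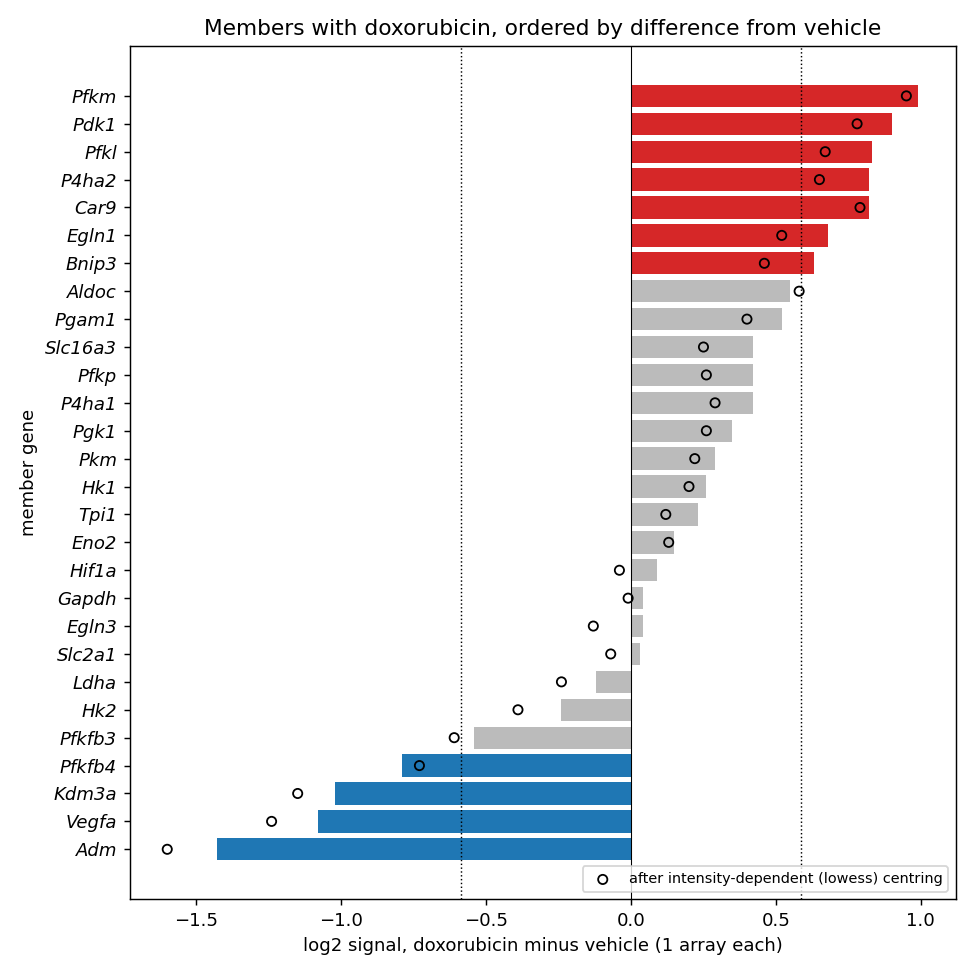
Log2 signal with doxorubicin minus vehicle (1 array each) for the 28 members, ordered by size, with red and blue bars past 1.5-fold (dotted lines) and open circles for the value after centring by signal strength. Pfkm (0.99) and Pdk1 (0.90) are at the top and Kdm3a (-1.02), Vegfa (-1.08) and Adm (-1.43) at the bottom. The circles of Egln1 (0.52) and Bnip3 (0.46) fall inside the limit.

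The order of the 5 arrays for each gene needs no reference array, and an array is counted as highest or lowest only where no other array ties with it. Doxorubicin gave the highest of the 5 values for 17 of 28 members, where it did so for 35.7% of tested genes, and the lowest for 5, where it did so for 25.4%. Those 5 were Pfkfb3, Pfkfb4, Vegfa, Adm and Kdm3a. Vehicle was lowest for 8 members (18.2% of tested genes) as deposited and for 4 after median centring, and as deposited it tied for lowest in Pdk1 and P4ha1. Tofacitinib was highest for 0 of 28 members as deposited, beside 17.6% of tested genes, and lowest for 6, beside 10.9%. After median centring, which takes 0.17 off every tofacitinib value, it was highest for 0 and lowest for 14. The order after centring was not counted over all tested genes, so the vehicle and tofacitinib counts there have no share beside them. In all, 14 members were past 1.5-fold with at least 1 compound (50.0%, beside 40.0% of tested genes).

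Compound C and GSK 690693, which both inhibit AMPK in addition to other kinases, can be set against each other without the vehicle array, although their doses are not given. With GSK 690693, 21 of 28 members were lower than with Compound C and 7 higher, where 45.2% of tested genes were lower. Hk2 was higher by 1.01 (11.2% of tested genes passed 1.5-fold in that direction), and Egln3 (-0.76), Vegfa (-0.69) and Pfkfb3 (-0.65) were lower (5.18%). The remaining 24 members lay within 1.5-fold.

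Other genes of the pathway were counted in lists picked by function. Of 15 tested isoforms and transporters outside the member list, 4 were at least 1.5-fold higher with doxorubicin and 0 lower, where 11.5% and 14.2% of tested genes were, with a median of 0.49 against 0.05 for all tested genes. They included the lactate and pyruvate transporter Slc16a1 (MCT1, 0.96), the glucose transporter Slc2a3 (GLUT3, 0.94) and Slc2a8 (0.69). None of the 15 passed the limit with the other 3 compounds as deposited, where the largest differences were those of Bpgm, the enzyme of 2,3-bisphosphoglycerate, at -0.51 with Compound C and with GSK 690693, and Slc2a8 at 0.43 with tofacitinib. After centring by signal strength Bpgm passed it with GSK 690693, at -0.60.

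Of 20 tested genes of the tricarboxylic acid cycle, 6 were higher with doxorubicin, 0 lower and 19 above vehicle, beside 11.5%, 14.2% and 54.0% of tested genes. Pyruvate carboxylase Pcx (1.01), the mitochondrial isocitrate dehydrogenase Idh2 (1.0) and Suclg1 (0.81) led, and the list median was 0.46 against 0.05 for all tested genes. After centring by signal strength 3 were higher, where 8.6% of tested genes were, with a median of 0.30 against 0.0 for all tested genes. With tofacitinib 19 of the 20 were above vehicle too (62.8% of tested genes were), with a median of 0.22 as deposited and 0.06 after median centring, and its only gene past 1.5-fold, Idh2 (0.59), was at 0.42 and 0.45 after the 2 centrings. Compound C and GSK 690693 gave medians of 0.13 and 0.18, with 1 and 0 genes at least 1.5-fold higher and 0 lower.

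Around pyruvate dehydrogenase, 3 of 11 tested genes were higher with doxorubicin and 2 lower, where 11.5% and 14.2% of all tested genes were. The lower ones were Pdhx (-0.86), a structural subunit of the complex, and Pdp2 (-0.82), a phosphatase that activates it, and the mitochondrial pyruvate carrier gene Mpc1 (0.78) was among the higher. Pdk4, a second inhibitory kinase of the complex, read 7.28 in the vehicle array, 8.23 under Compound C, 8.03 under doxorubicin, 8.14 under GSK 690693 and 7.51 under tofacitinib. It was at least 1.5-fold higher with Compound C, doxorubicin and GSK 690693 and stood at 0.23 with tofacitinib. With Compound C and GSK 690693 it was the only gene of the 11 past the limit as deposited, and with tofacitinib there was none. After centring by signal strength Pdk2, another kinase of the complex, was also past it with GSK 690693, at -0.59.

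In the pentose phosphate and hexosamine branches, all 13 tested genes were above vehicle with doxorubicin as deposited (6648 of all 12306 were) and 10 after centring by signal strength (6138 of 12306). As deposited, only Taldo1 (transaldolase, 0.95) passed 1.5-fold with doxorubicin, where 11.5% of tested genes were higher, and 1 gene each was lower with Compound C (Gnpnat1, -0.63, or -0.58 after median centring) and tofacitinib (Gfpt2, -0.71). With GSK 690693 there was none past the limit, and Taldo1 had the largest difference, 0.45. Rpia, at 0.56 with Compound C as deposited, was past it on the high side after median centring (0.61) and centring by signal strength (0.62).

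Genes that restrain glucose use stood on opposite sides of vehicle with doxorubicin and Compound C in part. Of 8 tested, 5 were lower with doxorubicin and 0 higher, beside 14.2% and 11.5% of tested genes. The 5 included Txnip (-2.41), which lowers glucose uptake, Sesn2 (-2.34), a stress sensor upstream of mTORC1, the related arrestin gene Arrdc4 (-0.92) and Trib3 (-1.05). With Compound C, Arrdc4 (1.3) and Sesn2 (1.03) were more than 2-fold higher and the mitochondrial PEP carboxykinase gene Pck2 (-0.79) lower, and Txnip stood at 0.24. No gene of the list passed 1.5-fold with GSK 690693 or tofacitinib as deposited, the largest difference being that of Sesn2 with GSK 690693, at -0.53, which was -0.60 after either centring. Both arrays are compared with the same vehicle array.

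Among HIF subunits and the oxygen sensing machinery, 5 of 12 tested genes were lower with doxorubicin and 0 higher, where 14.2% and 11.5% of all tested genes were. The median was -0.24 against 0.05 for all tested genes. Cited2, which competes with HIF-1 for the coactivator CBP/p300, read 11.65 with vehicle and 8.54 with doxorubicin. The gene of that coactivator, Crebbp, was at -1.15 and that of the asparaginyl hydroxylase FIH, Hif1an, at -1.05. Hif1an was 0.73 higher with tofacitinib, but 0.56 and 0.55 after the 2 centrings, within 1.5-fold. Epas1 and Ep300, at -0.44 with tofacitinib as deposited, were both past it after median centring, at -0.61, where 4.88% of tested genes were lower. With Compound C, Arnt, the constant HIF-1 partner subunit, stood at 0.61 and Eloc, a subunit of the VHL ligase, at -0.63. Arnt was at 0.58 after centring by signal strength and Eloc at -0.58 after median centring, each just within the limit. No gene of this list passed 1.5-fold with GSK 690693.

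Of 34 other HIF target genes tested, 8 were higher with doxorubicin and 10 lower, beside 11.5% and 14.2% of all tested genes. The 8 became 12 after median centring and 5 after centring by signal strength, where 14.4% and 8.6% of all tested genes were higher. The 10 did not change in number, where 12.8% and 15.4% of all tested genes were lower. At 2-fold 2 were higher and 8 lower, beside 1.33% and 6.46% of all tested genes. Highest were Ndrg1 (1.67) and Car12 (1.02). Lowest were the circadian repressor Bhlhe40 (-2.66), the endothelin gene Edn1 (-2.50) and Ddit4 (-2.49), an inhibitor of mTORC1. With Compound C 9 were at least 1.5-fold higher and 2 lower, beside 6.07% and 10.0% of all tested genes. The list median was then 0.32 (0.38 and 0.32 after the 2 centrings). Hmox1, heme oxygenase, was highest at 1.11, and Edn1 (-1.74) and the lipase inhibitor Angptl4 (-1.28) were lowest. With GSK 690693 only Hmox1 (0.71) passed 1.5-fold and with tofacitinib only Nampt (-0.65), the NAD salvage enzyme, although 4 were lower with tofacitinib after median centring. The list medians were 0.03 and 0.00.

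**Figure D4:**
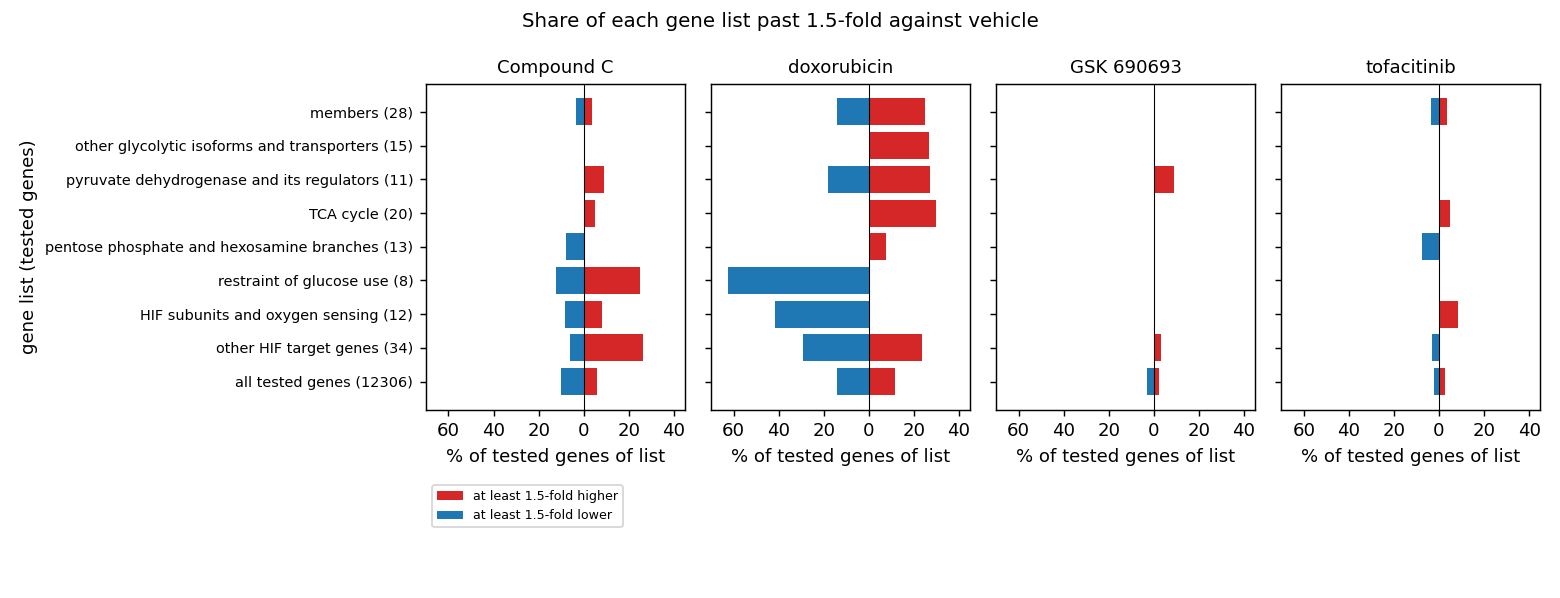
Percentage of the tested genes of each list at least 1.5-fold higher (red, to the right) or lower (blue, to the left) than vehicle for the 4 compounds, 1 array each, with the number of tested genes in parentheses. With doxorubicin the list of genes that restrain glucose use has 5 of 8 lower, the tricarboxylic acid cycle list 6 of 20 higher, and the members 7 higher and 4 lower of 28.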

How the data were processed

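Total RNA of 5 samples (300 ng each) was hybridised to 1 whole-transcript Affymetrix array per sample. The authors deposited log2 signals per probe set, made with Affymetrix Expression Console 1.3.1.187 per the submitters' processing notes. How probe sets were summarised, background-corrected and normalized, and on which genome build, is not stated in the material used, and the log2 scale was inferred from values of 1.05 to 13.18. If arrays were quantile normalized, a shift shared by most genes would have been removed. Array number limits the precision.

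The table held 41345 probe sets, of which 23521 had 1 symbol in the platform annotation, 1814 had several and 16010 had none listed. The probe set of highest mean stood for its gene, and a gene was tested if the highest of their 5 values reached the median of that array. The members and lists were chosen with earlier results of these data known. All members are named, with values on every array where 1.5-fold was passed, and of each list up to 3 genes with the largest difference per compound. Arrdc4, Pdk4, Pfkfb2, Ndrg1 and Car12 with doxorubicin, Txnip with Compound C and Pdk4 with tofacitinib were added after values were seen. So were Cd68, Col1a1, Col1a2, Col3a1 and the comparison of GSK 690693 with Compound C. Alternatives were median centring, centring by a lowess curve (fraction 0.3, statsmodels 0.14.6), no filter, a stricter filter (mean 1 log2 unit above the array medians), the other 4 arrays' median in place of vehicle, and the mean of all probe sets. The counting was tested on simulated data. Promoter windows came from RefSeq, GRCm38.p6. Python 3.11.15 and pandas 2.3.3 were used.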

Additional observations from a re-analysis of the deposited data

How the results depend on the processing

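No paired analysis was possible because each group is 1 array. Of 112 recomputed counts and medians of the members, 98 kept their value within 1.5 times (counts) or 0.1 (medians). Median centring gave 1 member lower with GSK 690693 in place of 0, where 4.4% of tested genes were lower. With tofacitinib it gave 0 higher and 2 lower in place of 1 and 1, where 0.544% and 4.88% of tested genes were. The tofacitinib median was then -0.23 in place of -0.06. Members lowest with vehicle, GSK 690693 and tofacitinib became 4, 0 and 14 in place of 8, 4 and 6. That order was not counted over all tested genes after centring. Lowess centring gave 1 lower with GSK 690693 (3.92% of tested genes) and 0 higher with tofacitinib (1.23%). The stricter filter kept 26 members and left 1 highest with vehicle in place of 2. Against the median of the other 4 arrays, 2 members were higher with Compound C (4.62% of tested genes), with a median of 0.08 in place of 0.22. With tofacitinib 0 were then higher (3.14%) and 2 lower (1.03%). Of the 664 recomputed single-gene differences, 15 moved by 0.258 or more, 13 of them with that reference and 2 with the mean of all probe sets. No called difference changed sign. The unknown normalization and the lack of replicates limit every count, and the cause of these changes was not tested.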
